A study of Mus musculus with 21 samples.

Results

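The iron uptake and storage genes are 10 mouse genes that carry out the import, holding, release and sensing of cellular iron: *Tfrc*, *Steap3*, *Slc11a2*, *Fth1*, *Ftl1*, *Ncoa4*, *Slc40a1*, *Aco1*, *Ireb2* and *Fbxl5*. The rule that picks them from the 55400 genes of the count table is a list of symbols, drawn up when earlier results of these data were known, and all 10 were found and passed the filter on low counts in every comparison. The data were poly(A) RNA-seq of 21 libraries in 7 groups of 3 biological replicates: D4, D4H8, D4H8+GSKJ4, D5, D5+GSKJ4, D6 and D6+GSKJ4, where D is the day of differentiation and H8 adds 8 hours. Every group came from wild-type C57BL/6 mouse embryonic stem cells, grown on mitomycin-C-treated embryonic fibroblasts, turned into embryoid bodies and led towards motor neurons (MNs) with retinoic acid and SAG, an agonist of Sonic hedgehog signalling. The protocol attached to all samples adds DAPT, a gamma-secretase inhibitor, at D4 and D5 where the hypaxial motor column is the goal. The study says it focused on that column, and the course it shows for it has the stages D4, D4H8, D5 and D6. Use of DAPT in the RNA-seq cultures is not stated separately. Where it was used, the steps from D4 to later stages include its addition. GSKJ4 is a small molecule used to inhibit Kdm6b, a histone demethylase that needs ferrous iron, and treated cultures received it a day before harvest. The dose in the RNA-seq cultures and the content of the untreated medium in place of GSKJ4 are not given in the sources used here. The cultures were whole differentiations of 1 stem cell strain, so each value is an average over the cell types present. The study describes the replicates of a stage as independent experiments.

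Cells take up iron by binding transferrin to its receptor, reducing the iron in the endosome and carrying it into the cytosol, and they store the surplus in ferritin. Iron regulatory proteins watch over the supply: when iron is scarce they bind a hairpin called the iron responsive element (IRE), which protects the receptor mRNA from decay when it lies in the 3′ UTR and blocks translation of ferritin and ferroportin mRNA when it lies in the 5′ UTR. A steady-state RNA level can therefore show the first kind of control and not the second. Because GSKJ4 was designed against enzymes with iron in the active site, the comparison asked whether transcripts that answer to iron differed between treated and untreated cultures.

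The hairpins themselves were read from the GENCODE M21 transcripts on GRCm38, to show which of the 10 mRNAs hold one and how alike they are. The search asked for a C, 5 bases, the loop CAGTGN and 5 bases, with all 5 upper pairs formed (G-U pairs allowed) and at least 4 of 5 pairs in the stem below, on the transcript strand; the 4 of 5 was set after matches had been seen. Of 21901 protein-coding genes, 30 held such a site (0.137%), and 4 of the 10 iron genes were among them. Each line gives a 27-base site, 5′ to 3′ in DNA letters, with the first 5 bases of the loop in capitals.
Tfrc 3′ UTR, chr16:32631220-32631246 (+): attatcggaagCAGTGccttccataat
Tfrc 3′ UTR, chr16:32631599-32631625 (+): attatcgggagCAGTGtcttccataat
Tfrc 3′ UTR, chr16:32631664-32631690 (+): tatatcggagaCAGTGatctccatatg
Tfrc 3′ UTR, chr16:32631711-32631737 (+): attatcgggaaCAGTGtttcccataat
Fth1 5′ UTR, chr19:9982733-9982759 (+): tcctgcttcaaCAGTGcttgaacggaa
Ftl1 5′ UTR, chr7:45459780-45459806 (-): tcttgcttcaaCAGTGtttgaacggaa
Slc40a1 5′ UTR, chr1:45925466-45925492 (-): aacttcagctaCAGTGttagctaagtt

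*Tfrc* held 4 of these sites, all after the coding sequence, while the 2 ferritin mRNAs and *Slc40a1* held 1 each before it. A match is a description of letters and not evidence of binding, and the absence of a match in *Slc11a2*, *Aco1*, *Ireb2*, *Steap3*, *Fbxl5* and *Ncoa4* says only that these letters were not found in their annotated coding transcripts. Among the wider iron genes, *Alas2*, which starts heme synthesis in red cells, held 1 site. *Slc11a2* is known to make mRNAs with and without an IRE, and the gene-level counts here add them together.

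The 21 libraries held 14982115 to 34383842 counts (median 16238435), and D4H8 replicate 1 was the deepest. MN genes (*Isl1*, *Isl2*, *Mnx1*, *Chat*, *Slc18a3* and *Slc5a7*) summed to 20.99 to 45.9 CPM (counts scaled to a common library total) at D4 and to 1251 to 1442 CPM at D6, so the markers of the labelled cell type were low in the early groups. The D4H8+GSKJ4 libraries stood apart. Their MN sum was 35.1 to 75.2 CPM against 161 to 187 untreated, their progenitor sum (*Olig2*, *Nkx6-1*, *Sox2*, *Pax6* and *Hes5*) 126 to 241 against 557 to 771, and their proliferation sum over 8 genes 2510 to 3802 against 4212 to 4291. Fewer cells of a type and less RNA per cell cannot be told apart in such bulk samples. Within that group, replicate 2 differed most from its partners, with a mean chi-square per gene of 117 and 96.7 against replicates 1 and 3, and D5+GSKJ4 replicate 2 had 39381 genes at 0 against 29339 to 32805 in the other libraries. Several results that turn on these libraries are given with and without them.

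Levels were compared between genes as FPKM, which divides by exonic length. *Ftl1*, the light chain of ferritin, was the highest in all 7 groups, at a mean of 1256 FPKM over the 21 libraries (737 to 2169), above 99.98% of all genes in the table. *Fth1*, the heavy chain that oxidises iron as it enters the shell, averaged 53.6 FPKM (41.2 to 72.3), and *Tfrc*, the transferrin receptor, 50.5 FPKM (34.5 to 79.4). *Fth1* and *Tfrc* exchanged the next place between groups, and their libraries overlapped in all groups but D6. That exchange rests on the length used: per base of the longest coding transcript (1494 for *Fth1* and 4890 for *Tfrc*, a check added after the levels were seen) *Fth1* had the higher mean in all 7 groups, from 114 against 77.4 at D5 to 136 against 56.8 at D4H8+GSKJ4.

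*Ireb2* and *Aco1*, which encode the 2 iron regulatory proteins, averaged 33.7 and 29.9 FPKM. *Fbxl5*, the iron-sensing subunit of the ubiquitin ligase that removes those proteins, averaged 10.0 FPKM, *Slc11a2*, the endosomal importer of ferrous iron, 9.52 FPKM and *Ncoa4*, the receptor that delivers ferritin to lysosomes, 7.10 FPKM. *Steap3*, an endosomal iron reductase, and *Slc40a1*, the iron exporter ferroportin, stood far below at 0.740 and 0.674 FPKM, on 6 to 158 and 28 to 241 counts per library, and their libraries overlapped at D4, D4H8, D6 and D6+GSKJ4 and lay apart in the other 3 groups. The order of this pair also turned with length, since *Slc40a1* had the higher mean in all 7 groups per base of the longest coding transcript.

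The gap between the 2 ferritin chains depends on the length used. The files give *Fth1* 3469 exonic bases, while its longest coding transcript in the annotation has 1494, against 1340 and 968 for *Ftl1*, so that FPKM lowers *Fth1* more. In raw counts *Ftl1* exceeded *Fth1* by a mean of 7.62 times at D6 to 10.5 times at D4H8+GSKJ4, with single libraries from 6.27 to 13.6. The pseudogene *Ftl1-ps1* took 5500 counts over all libraries against 611554 for *Ftl1*, and *Ftl1* and *Fbxl5* each overlap a lowly expressed gene (mean CPM of 1.56 and 1.00), so their counts may hold some reads of those neighbours.

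**Figure D1:**
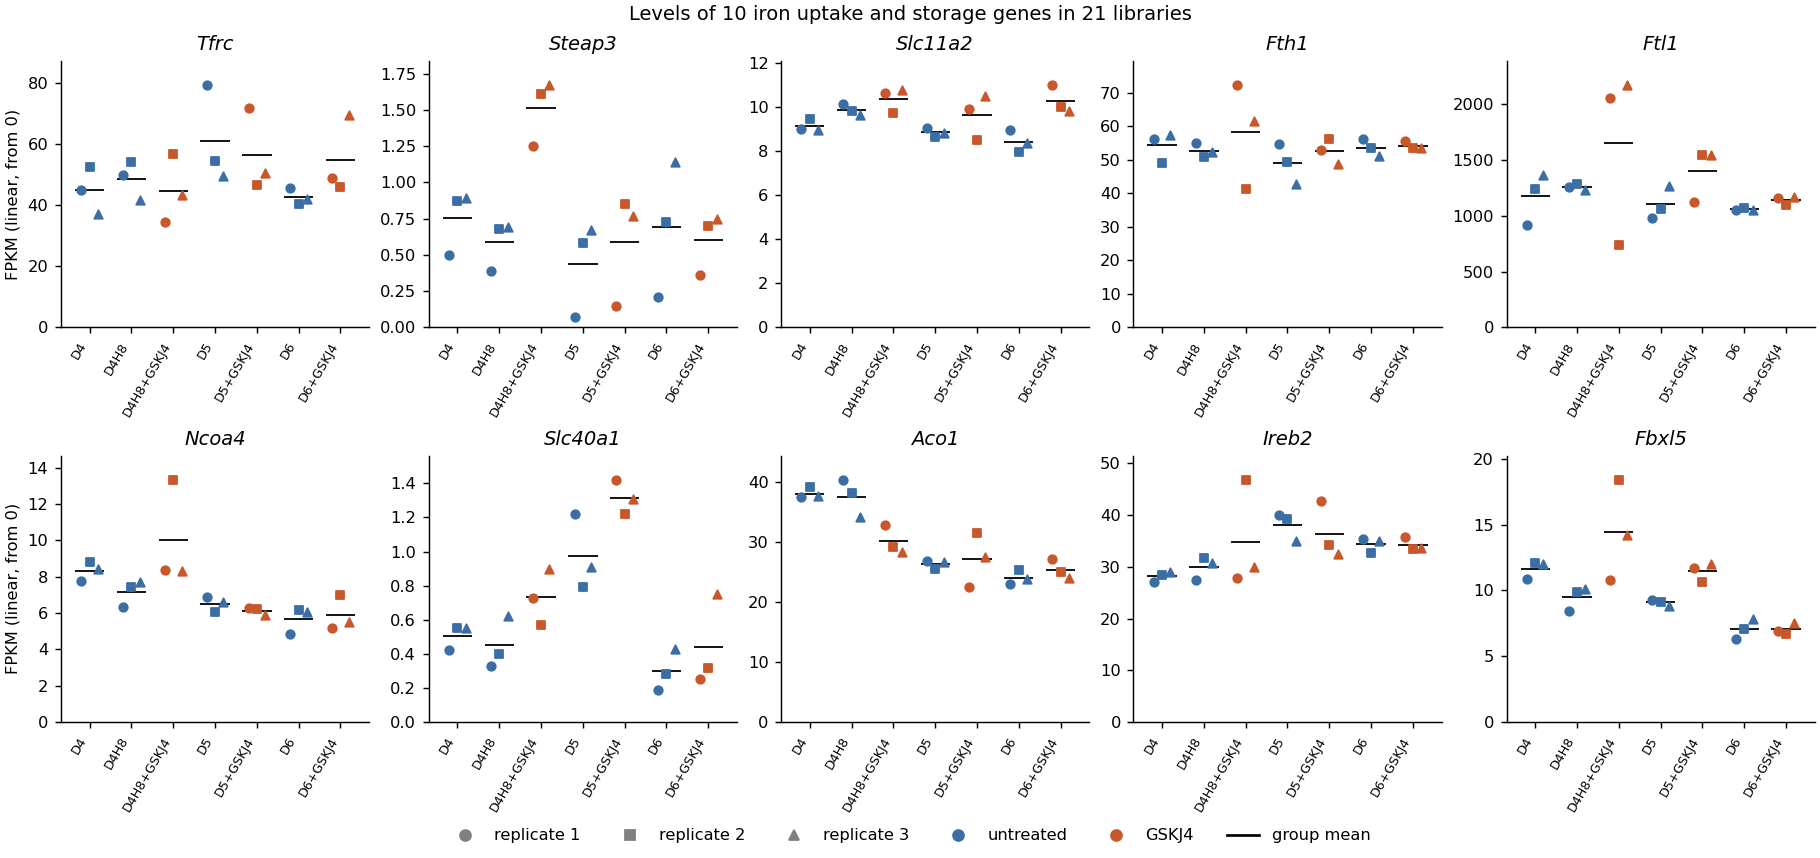
FPKM (vertical axis, linear from 0, its own range in each panel) of the 10 genes in each library of the 7 groups; circles, squares and triangles are replicates 1, 2 and 3, blue untreated and orange GSKJ4, and bars are group means. *Ftl1* reaches 2169 FPKM and *Slc40a1* no more than 1.42, and the D4H8+GSKJ4 square (replicate 2) lies away from its partners for *Ftl1*, *Fth1*, *Ncoa4*, *Ireb2* and *Fbxl5*.

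In the main edgeR fits, without a replicate block, no iron uptake or storage gene passed the test between GSKJ4 and untreated cultures. This held at D4H8, D5 and D6. Some alternative fits called *Steap3*, *Fbxl5* or *Ftl1* at D4H8, as given below. At D6, where same-numbered libraries were taken as paired, a blocked fit called *Tfrc* and *Slc11a2*, both higher with GSKJ4. By the quasi-likelihood test of edgeR, with p adjusted over all tested genes by Benjamini-Hochberg, 0 of 10 were called at D4H8, where 3.96% of 16269 tested genes were, 0 of 10 at D5 (0.00613% of 16309) and 0 of 10 at D6 (0% of 16301). At an unadjusted p under 0.05 the counts were 2, 0 and 1 of 10, beside 25.1%, 4.7% and 1.36% of all genes. The median log2 fold change of the 10 genes was 0.27 at D4H8, 0.07 at D5 and 0.06 at D6, against 0.02, -0.02 and 0.00 over all genes. DESeq2 called 1, 0 and 0 of the 10, beside 2196, 74 and 1 of all tested genes, giving no adjusted p for *Steap3* at D5. With 3 libraries a group, 95% intervals ran from -0.24 to 0.22 for *Fbxl5* at D6 and from -1.51 to 2.26 for *Steap3* at D5, and a missed threshold does not show that levels were alike.

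Within uptake, *Steap3* moved most at D4H8. Its untreated libraries held 0.39, 0.68 and 0.69 FPKM and its treated libraries 1.25, 1.61 and 1.67 FPKM, so that every treated library lay above every untreated one. The log2 fold change was 1.36 (SE 0.33, 95% interval 0.63 to 2.09), with an adjusted p of 0.0510 by edgeR. DESeq2 (adjusted p = 0.00184) and edgeR without the count filter (0.00977) called it, and so did the fit with a replicate block (0.00764). Over all genes these fits called 2196 of 16269, 2287 of 31166 and 2274 of 16269, against 644 of 16269 in the main fit. Same-numbered D4H8 libraries correlated at 0.440, 0.0731 and 0.255, not all over 0.1, so D4H8 was not counted as paired. Without single libraries the edgeR value ran from 1.13 to 1.49 and the adjusted p from 0.0517 to 0.223.

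*Steap3* at D5 and D6 gave no such picture. Untreated D5 libraries held 0.07, 0.58 and 0.67 FPKM against 0.15, 0.85 and 0.77 treated, and untreated D6 libraries 0.21, 0.73 and 1.14 against 0.36, 0.70 and 0.75. Replicate 1 was the lowest library in all 7 groups, so the log2 fold changes of 0.38 at D5 and -0.21 at D6 sat inside a spread far larger than themselves. Without D5+GSKJ4 replicate 2 the D5 value was 0.02. The difference between the D6 and D4H8 effects was -1.56 (95% interval -3.48 to 0.37, adjusted p = 0.484 by edgeR), so the effect is not shown to differ between stages.

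*Tfrc* did not separate treated from untreated libraries at D4H8 (50.1, 54.2 and 41.8 FPKM untreated, 34.5, 56.8 and 43.4 treated) or at D5 (79.4, 54.6 and 49.6 untreated, 71.9, 46.8 and 50.7 treated). At D6 the untreated libraries held 45.6, 40.4 and 42.1 FPKM and the treated ones 48.9, 46.0 and 69.6 FPKM. The D6 groups did not overlap, and treated replicate 3 lay well above its partners. The log2 fold changes were -0.14 (SE 0.24) at D4H8, -0.16 (SE 0.24) at D5 and 0.35 (SE 0.16) at D6, none called. Without D4H8+GSKJ4 replicate 2 the D4H8 value was -0.42 (SE 0.16, adjusted p = 0.127 by edgeR). Without D5+GSKJ4 replicate 2 the D5 value was -0.03.

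*Slc11a2* was the steadiest of the uptake genes. Its D4H8 libraries ran from 9.63 to 10.2 FPKM untreated and from 9.73 to 10.8 treated, and its D5 libraries from 8.67 to 9.06 untreated and from 8.50 to 10.5 treated. At D6 the untreated libraries held 8.97, 7.99 and 8.36 FPKM and the treated ones 11, 10.01 and 9.84 FPKM, with no overlap. The D6 log2 fold change of 0.28 (SE 0.11) had an unadjusted p of 0.0442 and an adjusted p of 1 by edgeR.

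At D6 the libraries were taken as paired by replicate number, a pairing that the sources used here do not state. The deviations of same-numbered treated and untreated libraries from their group means correlated at 0.663, 0.316 and 0.446. With the number as a block, edgeR called 257 of 16301 genes (1.58%) and 2 of the 10 iron genes, *Tfrc* (log2 fold change 0.33, SE 0.08, adjusted p = 0.0279) and *Slc11a2* (0.28, SE 0.06, adjusted p = 0.0161), the receptor and the importer of the same uptake route. *Slc11a2* was higher in all 3 pairs by nearly the same amount, with log2 ratios of 0.30, 0.33 and 0.23. *Tfrc* was also higher in all 3 pairs, but unevenly, with log2 ratios of 0.10, 0.19 and 0.73. In blocked fits that each left out 1 pair, *Tfrc* kept an adjusted p under the threshold without pair 1 (0.000822) and not without pair 2 (0.0971) or pair 3 (0.0845), and *Slc11a2* kept it without pair 3 (0.00268) and not without pair 1 (0.126) or pair 2 (0.155). Without pair 3 the *Tfrc* value was 0.14.

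**Figure D2:**
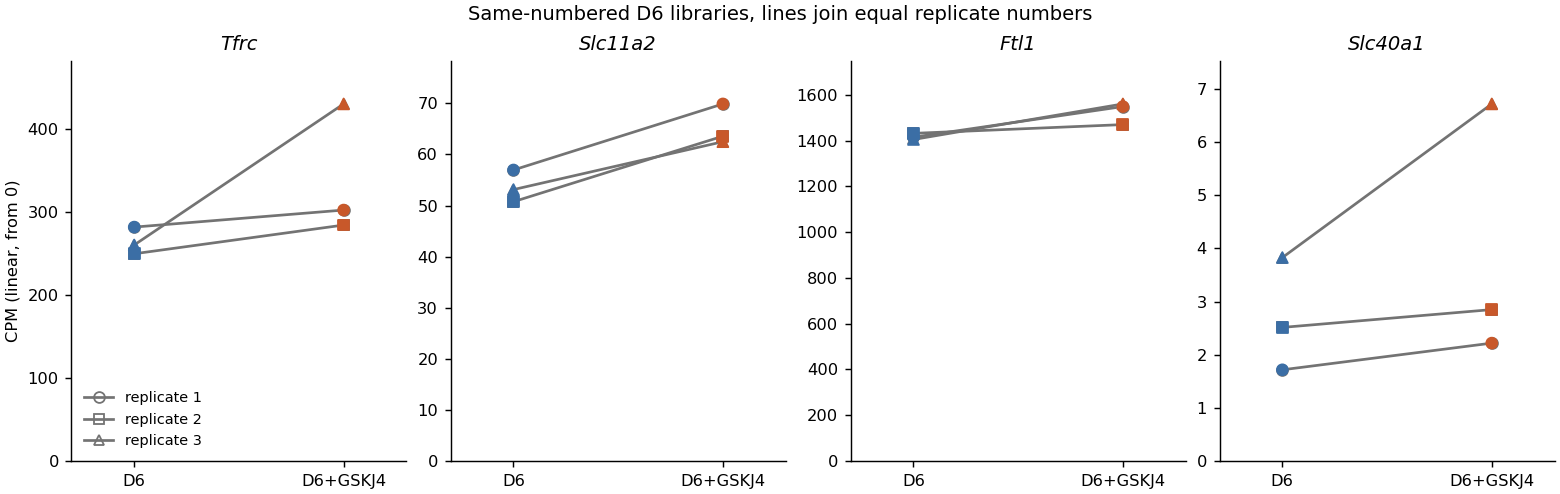
CPM (vertical axis, linear from 0) of *Tfrc*, *Slc11a2*, *Ftl1* and *Slc40a1* in the D6 libraries, with a line from each untreated library (blue) to the treated library of the same number (orange). All 3 lines rise in each panel; the *Slc11a2* lines are near parallel, while replicate 3 rises most for *Tfrc* and *Slc40a1*.

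Storage genes gave small values with 1 library against the rest. *Ftl1* at D4H8 held 1257, 1286 and 1235 FPKM untreated, and 2055, 737 and 2169 FPKM treated: 2 treated libraries were the highest of all 21 and replicate 2 was the lowest of all 21. The log2 fold change was 0.32 (SE 0.32, adjusted p = 0.555 by edgeR). In edgeR fits without single libraries it ran from 0.12 to 0.65, with adjusted p from 0.0240 to 0.857. Without treated replicate 2 it was 0.65 (SE 0.12, adjusted p = 0.0240), past the threshold, in a fit that called 1746 of 16694 genes. *Fth1* followed the same libraries, with 55.0, 51.0 and 52.4 FPKM untreated and 72.3, 41.2 and 61.7 FPKM treated, and its value of 0.09 (SE 0.20) was 0.25 without that library (adjusted p = 0.235).

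At D5 *Ftl1* held 980, 1061 and 1265 FPKM untreated and 1127, 1543 and 1546 FPKM treated, which overlap (log2 fold change 0.30, SE 0.15, adjusted p = 0.976 by edgeR). At D6 it held 1056, 1068 and 1048 FPKM untreated and 1156, 1097 and 1164 FPKM treated, with no overlap and a log2 fold change of 0.10 (SE 0.11). *Fth1* stayed between 42.8 and 56.3 FPKM in all 12 libraries of D5 and D6, with log2 fold changes of 0.06 and 0.01.

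*Ncoa4* at D4H8 held 6.33, 7.43 and 7.73 FPKM untreated and 8.38, 13.3 and 8.30 FPKM treated. The groups did not overlap, but the log2 fold change of 0.47 (SE 0.25, adjusted p = 0.270 by edgeR) was 0.13 without treated replicate 2. At D5 and D6 its values were -0.13 and 0.05, with overlapping libraries.

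*Slc40a1* had a positive value at all 3 stages and none was called. Untreated and treated libraries held 0.33, 0.40 and 0.62 against 0.73, 0.57 and 0.90 FPKM at D4H8, and 1.22, 0.79 and 0.91 against 1.42, 1.22 and 1.31 FPKM at D5. At D6 they held 0.19, 0.28 and 0.43 against 0.25, 0.32 and 0.75 FPKM. In CPM only the D5 groups did not overlap, where the 2 libraries at 1.22 FPKM nearly met. The log2 fold changes were 0.67 (SE 0.33), 0.39 (SE 0.27) and 0.54 (SE 0.47), with adjusted p of 0.234, 0.976 and 1 by edgeR, and without D6+GSKJ4 replicate 3 the last was -0.07.

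Among the iron sensors, *Aco1* was lower and *Fbxl5* higher in treated D4H8 libraries, without a call for either. *Aco1* held 40.4, 38.3 and 34.3 FPKM untreated and 32.9, 29.2 and 28.4 FPKM treated (log2 fold change -0.36, SE 0.17, adjusted p = 0.229 by edgeR). *Fbxl5* held 8.43, 9.87 and 10.1 FPKM untreated and 10.8, 18.4 and 14.2 FPKM treated (0.60, SE 0.24, adjusted p = 0.160). Neither pair of groups overlapped, and at D4H8 the groups also did not overlap for 32.9% of all tested genes. *Fbxl5* was called in 1 edgeR fit over all 21 libraries (adjusted p = 0.0248), which called 2048 of 18349 genes. Without treated replicate 2 the *Fbxl5* value was 0.30.

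At D5 *Fbxl5* was again higher in every treated library, at 11.7, 10.6 and 12.03 FPKM against 9.31, 9.14 and 8.81, with a log2 fold change of 0.29 (SE 0.14, adjusted p = 0.976 by edgeR). At D6 it was level, with 6.92, 6.69 and 7.56 FPKM treated against 6.32, 7.09 and 7.82 (-0.01, SE 0.10). *Aco1* at D5 and D6 had values of -0.01 and 0.07, and *Ireb2* had 0.21, -0.11 and -0.01 at the 3 stages, where its D4H8 value turned to -0.15 without treated replicate 2.

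Counted over the 10 genes, treated and untreated libraries did not overlap in CPM for 4 at D4H8 (*Steap3*, *Fbxl5* and *Ncoa4* higher, *Aco1* lower), where 32.9% of all tested genes did not, for 2 at D5 (*Slc40a1* and *Fbxl5*, higher) beside 11.6%, and for 3 at D6 (*Tfrc*, *Ftl1* and *Slc11a2*, higher) beside 5.3%. The genes apart at D6 were not those apart at D4H8. Tests of the difference in effect called 0 of 10 between D5 and D4H8 (0.249% of 18103 genes), between D6 and D4H8 (0.735%) and between D6 and D5 (0%), at adjusted p from 0.307 up, so no stage is shown to differ from another. At an unadjusted p under 0.05 the counts were 1, 2 and 0 of the 10, beside 1817, 2477 and 358 of the 18103 genes.

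Summed markers of other cell types at D4H8 overlapped between treated and untreated libraries, except for the macrophage genes. The 5 endothelial genes summed to 22.1 to 33.0 CPM treated against 9.13 to 24.1 untreated, with 5 and 4 of them at a mean of at least 1 CPM and none at 0 in all 3 libraries. The 6 fibroblast genes summed to 89.8 to 218 CPM against 55.9 to 109, with 5 of the 6 at a mean of at least 1 CPM. The 6 macrophage genes summed to 6.65 to 7.44 CPM against 5.54 to 6.41, with 1 of the 6 at a mean of at least 1 CPM and 1 at 0 counts in all 3 libraries of each group. The 7 erythroid genes, from cells that use these iron proteins heavily, summed to 2.16 to 10.6 CPM against 4.21 to 9.19, and visceral endoderm genes to 15.9 to 19.7 against 15.7 to 20.2. The part of these cells in the *Steap3*, *Fbxl5*, *Ncoa4* and *Aco1* values was not tested.

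**Figure D3:**
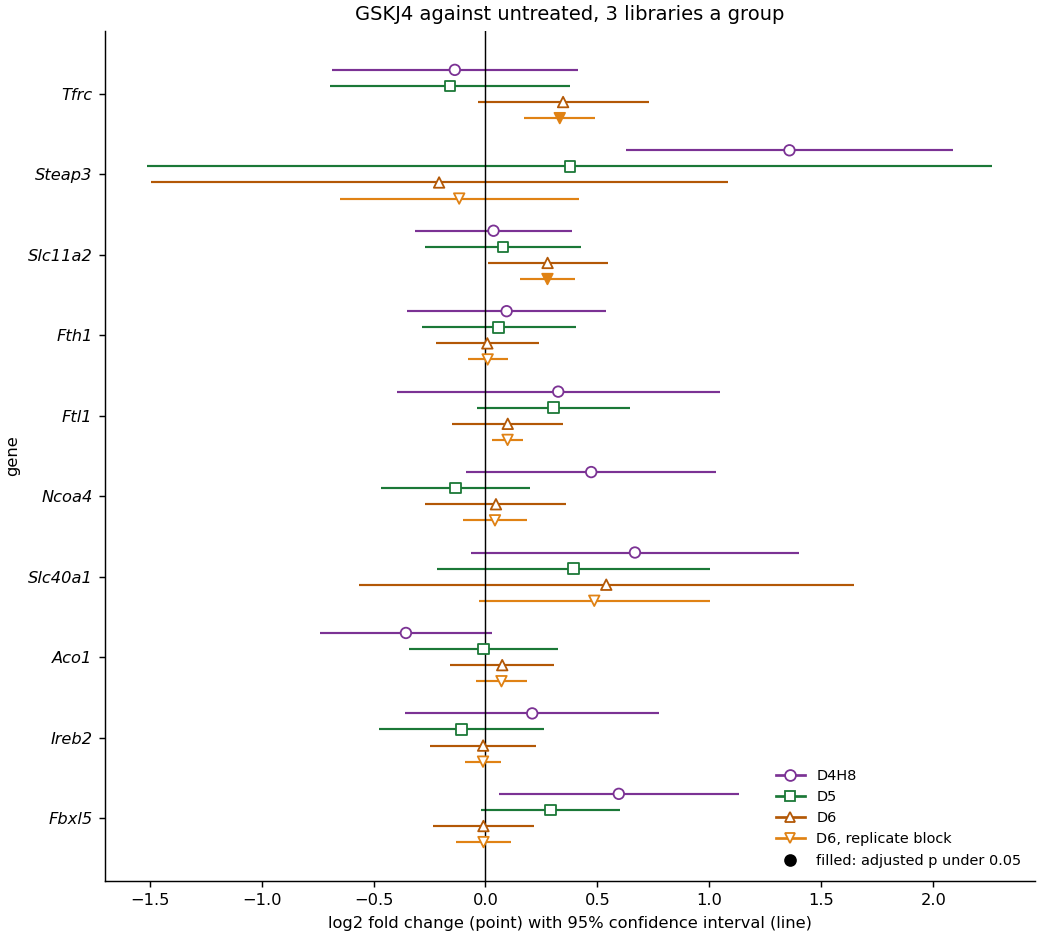
Log2 fold change (horizontal axis) of each gene, GSKJ4 against untreated, with 95% intervals, at D4H8 (purple circles), D5 (green squares), D6 (brown upward triangles) and D6 with the replicate block (orange downward triangles); filled points had an adjusted p under 0.05. Only *Tfrc* and *Slc11a2* in the blocked D6 fit are filled, and the D4H8 point of *Steap3* at 1.36 lies farthest from 0.

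Between untreated stages more of the 10 genes were called. From D4 to D6, 4 of 10 were called, *Ireb2* higher and *Aco1*, *Fbxl5* and *Ncoa4* lower, beside 63.9% of 17519 tested genes, so the share of iron genes was below that of all genes. From D4 to D4H8 0 of 10 were called (4.38% of all genes), from D4H8 to D5 3 of 10 (27.7%), and from D5 to D6 1 of 10 (34.3%). In the first of these steps 2 of 10 had an unadjusted p under 0.05, beside 2894 of 17519 genes. DESeq2 called 1 there, *Fbxl5*, beside 1191. *Tfrc*, *Slc11a2*, *Fth1* and *Ftl1*, the core of uptake and storage, were not called at any step, with log2 fold changes from D4 to D6 of -0.01, -0.05, 0.05 and -0.07. The 95% intervals of these were -0.43 to 0.41 for *Tfrc*, -0.29 to 0.19 for *Slc11a2*, -0.24 to 0.33 for *Fth1* and -0.36 to 0.22 for *Ftl1*. *Tfrc* passed the threshold from D5 to D6 without the count filter (-0.41, adjusted p = 0.0406).

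*Slc40a1* rose from D4H8 to D5 and fell from D5 to D6. Its untreated libraries held 0.42, 0.55 and 0.55 FPKM at D4, 0.33, 0.40 and 0.62 at D4H8, 1.22, 0.79 and 0.91 at D5 and 0.19, 0.28 and 0.43 at D6. The D5 libraries lay above all other untreated ones. The step up to D5 was 1.13 (SE 0.30, adjusted p = 0.0123 by edgeR) and the step down to D6 -1.61 (SE 0.31, adjusted p = 0.00148). The rise lost its call without D4H8 replicate 1 (adjusted p = 0.0552), D4H8 replicate 2 (0.0534) or D5 replicate 1 (0.0593), while the fall kept it in all 19 alternatives. D6 against D4 was -0.70 (adjusted p = 0.0646), called with the replicate block (0.0457) and with DESeq2 (0.0496).

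Erythroid genes summed to 2.16 to 22.03 CPM in the D5 libraries, the 22.03 being replicate 1, which also had the highest *Slc40a1* and *Tfrc*. Its 79.4 FPKM of *Tfrc* stood against 54.6 and 49.6 in the other D5 libraries, and *Tfrc* against D4H8 was 0.34 (SE 0.20, adjusted p = 0.227 by edgeR). Without D5 replicate 1 the *Tfrc* value was 0.08 (adjusted p = 0.805) and the *Slc40a1* value 0.92. The part of the erythroid shift in either gene was not tested.

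The 2 iron regulatory proteins went opposite ways in RNA. *Aco1* fell from 37.5, 39.3 and 37.7 FPKM at D4 to 26.9, 25.6 and 26.8 at D5 and 23.1, 25.3 and 23.9 at D6, with no overlap between D4 and D6. *Ireb2* rose from 27.1, 28.5 and 29.1 FPKM at D4 to 39.9, 39.3 and 35.1 at D5 and 35.3, 32.7 and 34.9 at D6, also without overlap. In FPKM *Aco1* was the higher of the pair at D4 and D4H8 and *Ireb2* at D5 and D6, without overlap in any of these groups. This order rests on the exonic lengths of 4496 and 9479 bases: per base of the longest coding transcript (3832 and 5770) the pair overlapped at D4 (means of 44.8 for *Aco1* and 46.4 for *Ireb2*) and D4H8 (44.2 and 49.1), and *Ireb2* was the higher at D5 and D6. The change of each gene between stages does not depend on its length.

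By edgeR the D4-to-D6 change of *Aco1* was -0.60 (SE 0.11, adjusted p = 0.000275), called in all 19 alternatives, and that of *Ireb2* 0.35 (SE 0.11, adjusted p = 0.0127). The *Ireb2* call was lost with upper-quartile scaling (0.19, adjusted p = 0.122), which moved the median of all genes from -0.04 to -0.19, and also with no count filter (0.0672), in 1 fit over all 21 libraries (0.174) and without D4 replicate 3 (0.0657). Both changes fell mainly in the step from D4H8 to D5, where *Aco1* fell by 0.51 on the log2 scale (adjusted p = 0.00324) and *Ireb2* rose by 0.36 (adjusted p = 0.0261), the latter losing its call in 8 of 19 alternatives.

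*Fbxl5* and *Ncoa4* were lower at D6 than at D4. *Fbxl5* held 10.9, 12.1 and 11.99 FPKM at D4, 8.43, 9.87 and 10.1 at D4H8, 9.31, 9.14 and 8.81 at D5 and 6.32, 7.09 and 7.82 at D6. *Ncoa4* held 7.77, 8.80 and 8.42 FPKM at D4 and 4.84, 6.17 and 6.05 at D6, without overlap. The changes to D6 were -0.66 (SE 0.10, adjusted p = 7.65e-05 by edgeR) and -0.49 (SE 0.12, adjusted p = 0.002085), each called in all 19 alternatives, whereas edgeR called no single step for either gene. DESeq2 called *Fbxl5* from D4 to D4H8 (-0.34, adjusted p = 0.0109), and it was called from D5 to D6 with upper-quartile scaling (adjusted p = 0.0274) and without D4 replicate 1 (0.0427). Over the same days the proliferation sum fell from 4239 to 4625 CPM at D4 to 334 to 887 CPM at D6, and its part in these changes was not tested.

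**Figure D4:**
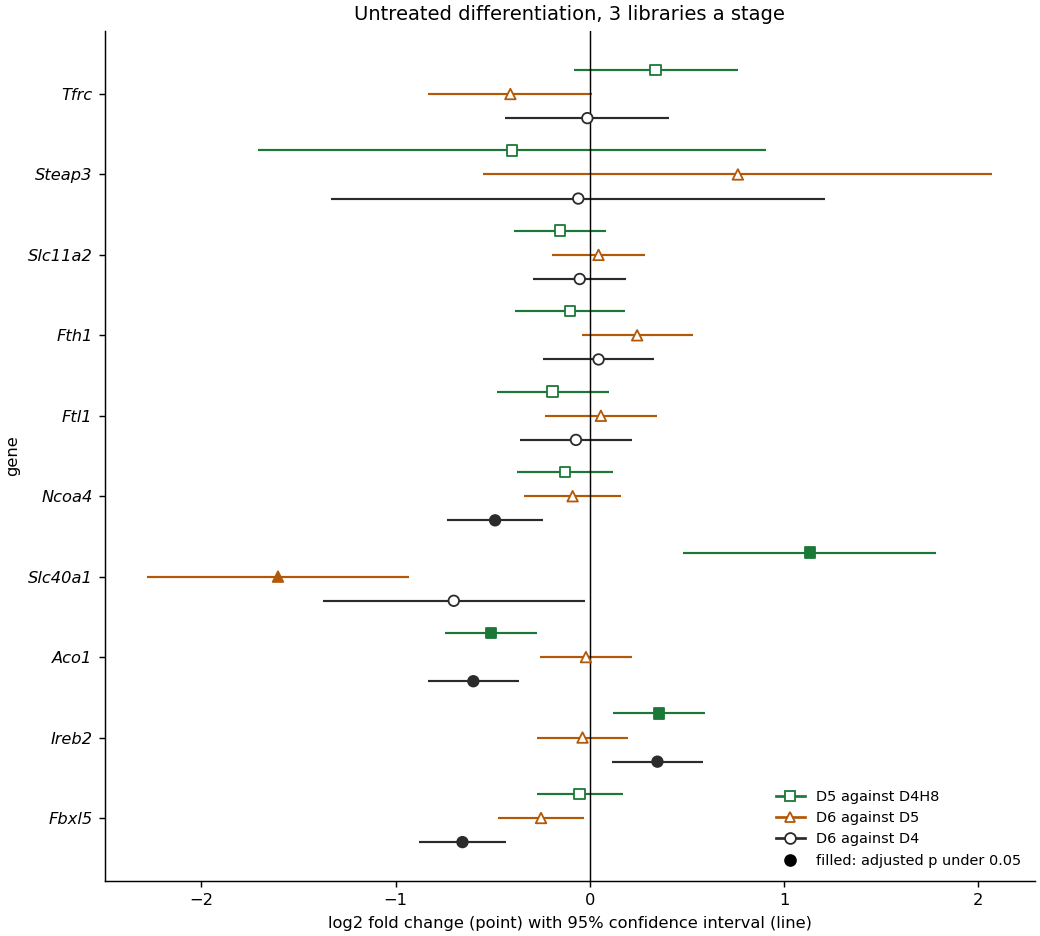
Log2 fold change (horizontal axis) of each gene with 95% intervals between untreated stages: D5 against D4H8 (green squares), D6 against D5 (brown triangles) and D6 against D4 (black circles), filled where the adjusted p was under 0.05. *Slc40a1* has filled points on both sides of 0, at 1.13 and -1.61, and *Aco1*, *Fbxl5* and *Ncoa4* have filled black circles left of 0.

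The rest of the iron pathway was read from 5 lists of 75 genes, of which 68 to 70 could be tested between treated and untreated cultures or between stages, and 71 for differences in effect. GSKJ4 at D4H8 changed 3 of 69 (2 higher, 1 lower), a share near the 3.96% of all tested genes: *Slc39a14*, which imports iron not bound to transferrin as well as zinc and manganese, *Epas1*, which encodes the oxygen-regulated factor HIF-2α, and *Flvcr2*, of the heme exporter family. *Slc39a14* held 17.2 to 24.9 FPKM untreated and 5.49 to 7.65 treated, a log2 fold change of -1.62 (SE 0.21, adjusted p = 0.00993 by edgeR), called in all 13 alternatives. *Epas1* held 0.35 to 0.78 FPKM untreated and 1.49 to 2.18 treated (1.58, SE 0.34, adjusted p = 0.0397), and *Flvcr2* 1.31 ± 0.195 and 3.28 ± 0.806 (SD, n = 3; 1.29, SE 0.28, adjusted p = 0.0401). Both lost the call in 1 fit over all 21 libraries (adjusted p = 0.138 and 0.239) and without single libraries, where the adjusted p reached 0.159 and 0.204. *Flvcr2* averaged 70.9 counts, under the 100 set for naming a gene, and is named because its value was seen.

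At D5 and D6, 0 of 68 and 0 of 69 of these genes were called by edgeR. Of them, 9 and 0 had an unadjusted p under 0.05, beside 4.7% and 1.36% of all genes. DESeq2 called 1 and 0, beside 74 and 1 over all genes. *Slc39a14* had log2 fold changes of -0.33 and 0.04 there, and its effect differed from that at D4H8 by 1.29 at D5 (SE 0.26, adjusted p = 0.0417) and by 1.67 at D6 (SE 0.26, adjusted p = 0.00350). The untreated level was itself falling, from 20.4 ± 4.02 FPKM (SD, n = 3) at D4H8 to 8.05 ± 0.865 at D5 and 2.98 ± 0.398 at D6, and the D4H8 libraries are the controls in both comparisons.

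In the untreated course 0 of 70 were called from D4 to D4H8. Of the 70, 10 had an unadjusted p under 0.05 there, beside 2894 of 17519 genes, and DESeq2 called 2, beside 1191. By edgeR 3 rose and 6 fell from D4H8 to D5, 7 rose and 12 fell from D5 to D6, and 11 rose and 29 fell from D4 to D6. Over all genes the shares called at the last 3 of these were 27.7%, 34.3% and 63.9%, so the wider iron genes were not called more often than genes at large. The median D4-to-D6 change of the 70 was -0.25 against -0.04 over all genes. By list, 2 rose and 7 fell of 13 in iron transport and storage (median -1.11), 1 rose and 2 fell of 7 iron regulators (-0.14), 3 rose and 0 fell of 5 other mRNAs described as holding an IRE (0.27), 3 rose and 9 fell of 18 in mitochondrial iron and heme (-0.30), and 2 rose and 11 fell of 27 in iron-sulfur cluster assembly (-0.18).

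The genes with the largest D4-to-D6 changes at 100 counts or more were *Heph*, a ferroxidase that works with ferroportin, at -2.69 (SE 0.30), *Slc39a14* at -2.17 (SE 0.17), the iron-sulfur assembly factors *Bola3* at -1.77 (SE 0.25) and *Hscb* at -1.66 (SE 0.35), the ubiquitin ligase *Herc2* at 1.63 (SE 0.17) and the metalloreductase *Steap2* at -1.49 (SE 0.19). *Heph* went from 2.70 to 4.13 FPKM at D4 to 0.30 to 0.72 at D6, while *Herc2* held 5.42 to 8.22 FPKM at D4 and 18.05 to 20.8 at D6. From D4H8 to D5, *Slc39a14* changed by -1.35, *Heph* by -1.02, *Bola3* by -0.90, *Herc2* by 0.69 and *Slc25a37* (mitoferrin 1) by -0.54. From D5 to D6, *Heph* changed by -1.48, *Slc39a14* by -1.32, *Hscb* by -0.999, *Epas1* by 0.91, *Slc48a1* (a heme transporter) by 0.81 and *Urod* (a heme synthesis enzyme) by -0.80. *Slc48a1* overlaps *Hdac7* on the other strand, and since the counting strand is not given its value may hold reads of that gene.

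**Figure D5:**
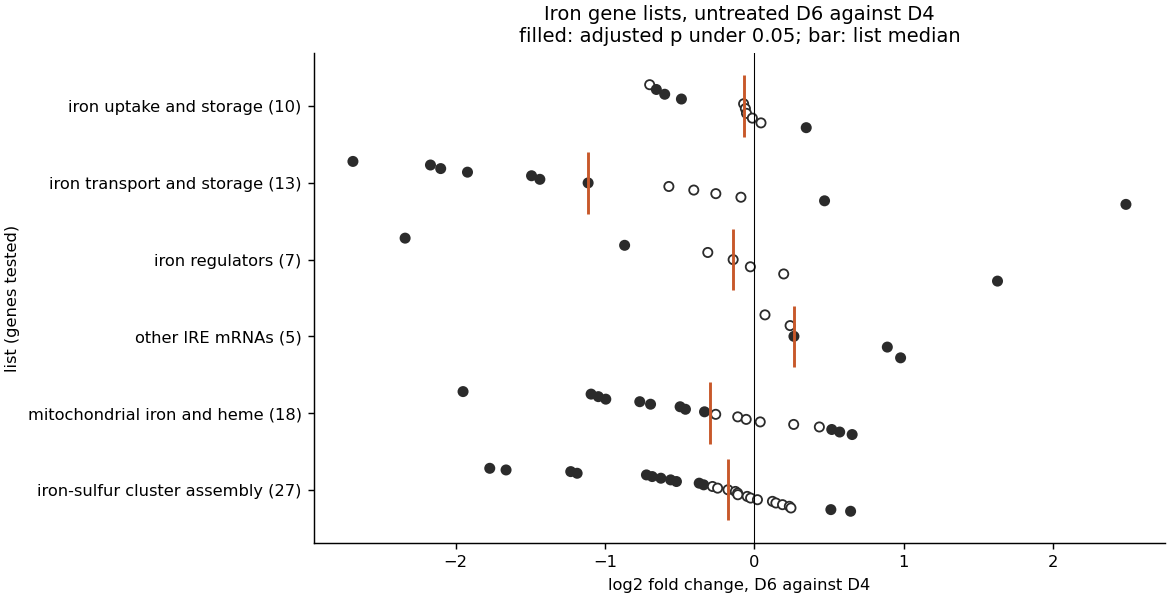
Log2 fold change from untreated D4 to D6 (horizontal axis) of every tested gene in the 10 uptake and storage genes and the 5 wider lists, with the number tested in parentheses; filled points had an adjusted p under 0.05 and orange bars are list medians. The transport and storage list has its median at -1.11, while the 10 genes centre on -0.07 with the 4 filled points between -0.66 and 0.35.

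The 3 of the 10 genes whose group means ranged most widely (*Steap3* by 2.20, *Slc40a1* by 2.17 and *Fbxl5* by 1.00 on the log2 CPM scale) were set beside 13676 genes with a mean of at least 1 FPKM. Over the 21 libraries the genes nearest *Steap3* by Pearson's r were *Etv5* (0.92), *Zscan10* (0.90) and *Dmrtb1* (0.89), *Chd2* (0.92) and *Akap7* (0.90) were among the 3 nearest *Slc40a1*, and those nearest *Fbxl5* were *Mlh3* (0.95), *Tmx3* (0.95) and *Evi5* (0.95). On other scales the order changed: *Etv5*, *Zscan10* and *Dmrtb1* ranked 33, 9 and 41 for *Steap3* on log2(FPKM + 1) and 138, 286 and 99 over the 7 group means, while for *Fbxl5* the same 3 genes led on log2(FPKM + 1) and ranked 21, 196 and 297 over group means. The libraries share stages, replicate numbers and treatment, so these are descriptions of likeness and carry no test.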

How the data were processed

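The deposited table holds raw counts per gene for 21 libraries, and a second deposited table holds FPKM made by the authors from those counts and exonic lengths. FPKM recomputed here differed by at most 0.005. Per the study's methods, Fastp cleaned the reads, HISAT2 placed them on mm10 and HTSeq assigned them to genes, and the counting strand is not given in the sources used here. Total counts ran from 14982115 to 34383842, which sets the precision of low genes such as *Steap3*. No library pair within a group agreed within sampling noise (mean chi-square per gene 6.94 to 117).

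Symbols, positions and hairpins came from GENCODE M21 on GRCm38 (55140 of 55400 identifiers had a symbol). edgeR 4.0.16 in R 4.3.3 tested counts by quasi-likelihood on TMM-scaled libraries, keeping genes that passed filterByExpr (minimum count 10), with Benjamini-Hochberg adjustment over all tested genes and a threshold of 0.05. Each GSKJ4 comparison used its own 6 libraries, stage comparisons the 12 untreated libraries and differences between stages 18. Consecutive comparisons share libraries. Standard errors are the log2 fold change over the root of F. The edgeR test without a block was checked on counts simulated after the D4H8 comparison, with changes larger than those reported for the 10 genes. The blocked fits, the stage comparisons and the differences in effect were not simulated. Python 3.11.15, pandas 2.3.3, numpy 2.4.6 and matplotlib 3.10.9 made tables and figures, and log2 CPM for likeness used a prior count of 2.

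The 10 genes and the lists were chosen with earlier results of these data known. All 10 are named in each comparison. Of the wider lists, called genes with a mean of at least 100 counts are named by size of change, up to 6 a comparison, and the 3 genes nearest by r for each of the 3 genes with the widest range. A few genes that these rules pick are not reported here. Alternatives were DESeq2 1.42.0, RLE and upper-quartile scaling, no filter, 10 counts in every library, a replicate block, 1 fit over all 21 libraries, each library left out, TMM-scaled levels, and other scales for likeness. Blocked D6 fits without each pair, and levels per base of the longest coding transcript, were added after seeing the data.

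Pairing was taken from the replicate numbers and checked by correlating deviations from group means: 0.440, 0.0731 and 0.255 at D4H8, 0.223, 0.0384 and 0.209 at D5, and 0.663, 0.316 and 0.446 at D6. Only at D6 did all 3 pass 0.1, so only D6 counts as paired among the GSKJ4 comparisons. The sources used here do not state that same-numbered libraries were grown together. Between untreated neighbours all 3 numbers passed 0.1 for D4H8 with D5 (0.137 to 0.315) and D5 with D6 (0.144 to 0.310), and not for D4 with D4H8 (0.0729 to 0.288). The main stage comparisons were nonetheless tested without the block, which was an alternative there.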

Additional observations from a re-analysis of the deposited data

Results flagged for a closer look

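*Slc39a14* was picked out because its response to GSKJ4 differed between stages by a test of the difference itself. Its effect at D5 minus that at D4H8 was 1.29 on the log2 scale (95% interval 0.75 to 1.83, adjusted p = 0.0417 by edgeR), and its effect at D6 minus that at D4H8 was 1.67 (1.13 to 2.22, adjusted p = 0.00350). Treated libraries held 6.89 ± 1.22, 6.59 ± 1.40 and 3.07 ± 0.166 FPKM at D4H8, D5 and D6 (SD, n = 3), against 20.4 ± 4.02, 8.05 ± 0.865 and 2.98 ± 0.398 untreated. The D4H8 untreated libraries enter both differences. None of the 10 uptake and storage genes was picked out in this way, and groups of 3 are too small for a search for single outlying libraries.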

How the results depend on the processing

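Of 1892 alternative values for the 100 fold changes of the 10 genes, 1859 kept their direction or stayed uncalled, 18 passed the threshold anew, 15 lost it and 0 reversed a call. The sign of 93 uncalled estimates changed. At D4H8, GSKJ4 called 0 of the 10 genes and 3 further iron genes, against 1 and 10 with DESeq2, 1 and 6 without the count filter, 1 and 7 with a replicate block, 1 and 9 in 1 fit over all 21 libraries, and 0 to 1 and 1 to 10 without single libraries. At D5, 1 further iron gene was called with DESeq2, with no filter and over all 21 libraries, against 0. At D6 the replicate block called 2 of the 10 genes against 0, and fits without a library or pair 0 to 1. From D4 to D4H8, DESeq2 called 1 of the 10 genes and 2 further genes, no filter 2 further genes and the block 1, against 0, and fits without a library 0 to 2 further genes. From D4H8 to D5 the further genes called were 14 with DESeq2, 15 with the block, 4 over all 21 libraries and 5 to 13 without single libraries, against 9, and of the 10 genes 1 to 3 without single libraries, against 3. From D5 to D6, upper-quartile scaling and no filter called 2 of the 10, against 1, and fits without a library 1 to 2, with 10 to 21 further genes against 19. The cause of these moves was not tested. The replicate block changed no other call of the 10 genes except *Steap3* at D4H8 and *Slc40a1* from D4 to D6, given above.

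Over all genes GSKJ4 called 644 at D4H8, against 2196 with DESeq2, 2287 with no filter, 2274 with the block, 2048 over all 21 libraries and 43 to 1746 without single libraries, the 1746 without treated replicate 2. At D5 it called 1, against 74, 128, 4 and 9, and 1 to 6 without single libraries. At D6 it called 0, against 1 with DESeq2, 257 with the block and 171, 181 and 406 with the block and without pair 1, 2 or 3. D4H8 against D4 called 767, against 1191 with DESeq2, 1319 with no filter, 422 over all 21 libraries and 350 to 912 without single libraries, and D5 against D4H8 called 4861, against 3218 over all 21 libraries. The differences in effect called 45 (D5 and D4H8), 133 (D6 and D4H8) and 0 (D6 and D5), against 235, 603 and 1 with DESeq2, 351, 626 and 13 with no filter, and 185 and 491 for the first 2 with the block. At least 10 counts in every library gave 208 for the second, and fits without a library 16 to 172, 40 to 284 and 0 to 1. Depth limits *Steap3* and *Slc40a1* most, at as few as 6 and 28 counts.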
